A study of Mus musculus with 6 samples.

Results

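Astrocytes are the star-shaped glia of the brain. They take up neurotransmitters and potassium, couple to each other through gap junctions, wrap blood vessels with endfeet that carry water channels, and secrete lipoproteins and proteins that act on synapses. In the hypothalamus they also contact neurons that sense hormones and nutrients, and their genes are used to follow these cells in bulk tissue.

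The 34 genes described here are markers of astrocytes, taken by symbol from a list of such markers, out of 47480 genes measured. They were compared between VMHpvlm and VMHpvll, which are neighbouring areas of the ventrolateral part of the ventromedial hypothalamus (VMH), a nucleus of mostly glutamatergic neurons. VMHpvlm had 3 libraries and VMHpvll had 3, and all came from female mice that carried VgluT2-cre and Ai6. VgluT2-cre acts in cells with a history of the vesicular glutamate transporter Slc17a6, and Ai6 is a green reporter that Cre switches on, so the label itself marks neurons and not astrocytes. Frozen coronal brain sections were cut by laser, the PicoPure kit yielded the RNA, and the Clontech SMARTer stranded total RNA kit made the libraries. Laser capture takes everything within the cut area, glia and vessels included. How the borders of each area were set, how many mice made up a library and how old they were is not given in the sources used here. In both areas the sample titles begin with F19, F20 and KH_161103, and the title that starts with KH_161103 ends in C in VMHpvlm and in D in VMHpvll. Whether libraries of equal name came from 1 animal is not stated. The p-values therefore cover these 6 libraries only. They rest on the spread of the differences between libraries of equal name and, for the most part, on a spread estimated over many genes. This spread may be technical.

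Depth was between 7157831 and 11293159 reads per library, a ratio of 1.58, and the transcript Gm42418 took 11.6% to 15.1% of the reads in VMHpvlm and 14.4% to 17.9% in VMHpvll. Nr5a1, the transcription factor that defines the VMH, averaged 308 ± 19.5 in VMHpvlm and 31.5 ± 6.73 in VMHpvll. Slc17a6 averaged 4665 ± 139 in VMHpvlm and 4946 ± 17.1 in VMHpvll. All levels are normalised read counts, with mean ± SD over 3 libraries per area, and values in single libraries are given in the order F19, F20 and KH_161103. Differences are log2 values, VMHpvlm minus VMHpvll, fitted within pairs of equal name on log2(normalised count + 1) with limma, and genes with an adjusted p (Benjamini-Hochberg over all tested genes) below 0.05 were called.

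The astrocyte marker genes were present in every library, and most were lower in VMHpvlm. All 34 passed the filter of a mean of at least 10, 24 were called lower in VMHpvlm, 0 were called higher and 10 were not called. Among all 14522 tested genes, 9.48% were called lower and 10.5% higher in VMHpvlm. With DESeq2, 10 members were called, all lower, and with limma without its trend and robust settings 0 were. Of all tested genes, these fits called 1230 and 422. The fitted difference was negative for 33 of the 34, with a median of -0.23, against 0.0025 for all tested genes. The 3 libraries of VMHpvlm lay below all 3 of VMHpvll for 21 members, an arrangement found in 13.5% of all tested genes, and above them for 0 members. In bulk tissue, fewer cells of a type and less RNA per cell cannot be told apart.

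The differences were small for most genes. Called members were between 1.05-fold and 2.21-fold lower in VMHpvlm, and only Gfap passed 2-fold. Their median difference of -0.29 was smaller in size than the -0.44 of all genes called lower. These medians cover genes of unlike level: 32 of the 34 members had a mean of at least 100, and genes were tested from a mean of 10. Summed over the 34 genes, the level was 61454, 67151 and 62656 in VMHpvlm, against 72751, 72082 and 68945 in VMHpvll. This is 0.588%, 0.658% and 0.611% of the total in VMHpvlm and 0.688%, 0.676% and 0.676% in VMHpvll. Sparcl1 (mean 17601 in VMHpvlm and 18535 in VMHpvll) and Apoe (10462 in VMHpvlm and 12474 in VMHpvll) weigh most in these sums. The F19 libraries stood farthest apart: the median member difference was -0.31 in F19, -0.17 in F20 and -0.19 in KH_161103, and 23 members had their largest difference in F19. Without the F19 pair 11 members were called, all lower in VMHpvlm, against 23 without F20 and 16 without KH_161103. Calls over all tested genes also fell, from 2905 to 2136 without F19, 2868 without F20 and 1776 without KH_161103. Without Gfap the list had 23 of 33 genes lower and a median of -0.21.

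**Figure D1:**
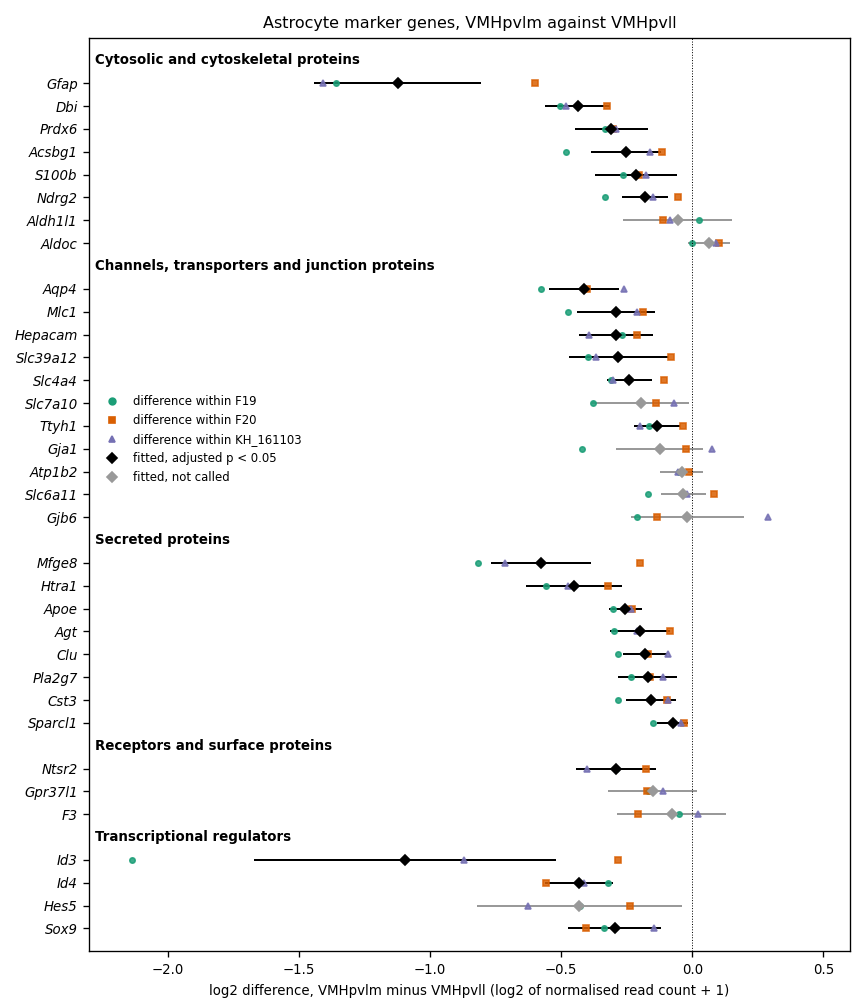
Fitted log2 difference (VMHpvlm minus VMHpvll, x axis, diamonds with 95% intervals) of each of the 34 astrocyte marker genes (y axis), grouped by the role of the protein, with the difference within each pair of libraries as coloured points; black marks genes called at an adjusted p below 0.05 and grey marks genes not called. The 24 called genes all lie left of 0, Gfap and Id3 lie farthest left, and Aldoc is the gene right of 0.

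The sequences before RefSeq transcript starts of Gfap, Apoe, Id4 and Mfge8 are shown as examples. These genes were lower in VMHpvlm in all 3 pairs and hold a searched motif. Other members for which both are true, such as Slc4a4 and Hepacam, are not shown. Each printed sequence is a run of 250 bases (build GRCm38.p6), given 5′ to 3′ on the gene's strand. Capitals mark a match to a motif of a regulator known in astrocyte development. Gfap encodes the glial intermediate filament, Apoe the main brain lipoprotein, Id4 an inhibitor of helix-loop-helix transcription factors, and Mfge8 a secreted protein that bridges phosphatidylserine to integrins.
Gfap: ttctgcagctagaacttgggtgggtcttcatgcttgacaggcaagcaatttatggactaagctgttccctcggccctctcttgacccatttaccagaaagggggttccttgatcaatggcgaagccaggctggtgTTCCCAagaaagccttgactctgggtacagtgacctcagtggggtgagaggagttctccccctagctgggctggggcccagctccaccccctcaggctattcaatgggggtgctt
Apoe: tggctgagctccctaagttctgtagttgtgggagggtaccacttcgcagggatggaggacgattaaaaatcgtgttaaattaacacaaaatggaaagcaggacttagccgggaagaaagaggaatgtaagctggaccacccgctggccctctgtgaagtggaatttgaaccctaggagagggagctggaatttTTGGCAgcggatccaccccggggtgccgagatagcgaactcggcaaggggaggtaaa
Id4: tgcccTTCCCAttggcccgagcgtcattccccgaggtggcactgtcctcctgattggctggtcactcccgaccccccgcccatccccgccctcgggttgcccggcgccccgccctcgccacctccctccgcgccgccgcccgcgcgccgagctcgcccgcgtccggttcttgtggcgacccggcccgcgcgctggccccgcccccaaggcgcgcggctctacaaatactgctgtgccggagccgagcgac
Mfge8: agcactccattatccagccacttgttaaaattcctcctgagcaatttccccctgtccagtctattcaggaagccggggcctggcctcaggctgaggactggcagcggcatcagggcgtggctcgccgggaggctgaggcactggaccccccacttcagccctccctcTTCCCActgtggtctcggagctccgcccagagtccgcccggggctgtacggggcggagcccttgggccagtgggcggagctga
The Gfap window is chr11:102897201-102897450 (minus strand), and its capitals are a match to the RBPJ letters that ends 109 bases before the start. The Apoe window, chr7:19698399-19698648 (minus strand), has a match to the NFI letters that ends 51 bases before the start. It is 1 of 3 windows of that gene, and the other windows, 1 of them directly upstream of the gene, hold none of the searched motifs. The windows of Gfap and Apoe lie within the spans of these genes in GENCODE M21. The Id4 window is chr13:48260866-48261115 (plus strand), with an RBPJ match that ends 239 bases before the start. The Mfge8 window is chr7:79149061-79149310 (minus strand), with an RBPJ match that ends 77 bases before the start.

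A window was found for 28 of the 34 members, 35 windows in all, and 4 motifs were searched in them on both strands. RBPJ is the DNA-binding partner of Notch, and its letters TTCCCA were in 13 of 35 windows (37.1%), from 12 genes, and in 21.6% of all 32851 windows. The letters TTGGCA of the NFI family were in 4 of 35 (11.4%) and in 12.3% of all windows. For TTCNNNGAA, the STAT motif, the counts were 5 of 35 (14.3%) and 7.02% of all windows. CATTGTT, a SOX motif, was in 0 of 35 and in 3.29% of all windows. In the Ntsr2 window the STAT and RBPJ matches overlap. A match describes letters only and is not evidence of binding.

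Among the 8 cytosolic and cytoskeletal proteins, 6 were lower in VMHpvlm, with a median difference of -0.23. Gfap (chromosome 11, 102887336 to 102900912, minus strand, mm10) had 269.5, 271 and 198 in VMHpvlm, against 694, 411 and 528 in VMHpvll. Every VMHpvlm library was below every VMHpvll library, and the gap was narrowest in F20. With 246 ± 41.6 in VMHpvlm and 544 ± 142 in VMHpvll, Gfap was 2.21-fold lower (difference -1.12, SE 0.14, adjusted p = 0.000186), the widest ratio of all 34 members.

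Dbi encodes acyl-CoA-binding protein, which is also cleaved into peptides that act on GABA receptors. Its level was 756, 786 and 614 in VMHpvlm, against 1074, 984 and 858 in VMHpvll, so the areas did not overlap although KH_161103 was the lowest library of both. The difference was -0.44 (SE 0.06, adjusted p = 1.76e-07), on means of 718 ± 91.7 in VMHpvlm and 972 ± 108 in VMHpvll. Prdx6 encodes a peroxiredoxin that reduces oxidised lipids, and it had 513, 580.2 and 547 in VMHpvlm, against 648, 716 and 669 in VMHpvll. Its areas were also apart in all 3 pairs (difference -0.31, SE 0.07, adjusted p = 0.000444, 547 ± 33.4 in VMHpvlm and 678 ± 35.2 in VMHpvll). The genome holds the named copies Prdx6b and Prdx6-ps2, so reads of Prdx6 may be split between them.

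Ndrg2, a cytosolic protein used to label astrocytes across brain areas, had 3275, 3392 and 3087 in VMHpvlm, against 4131, 3524 and 3425 in VMHpvll. The F19 library of VMHpvll was above the rest, and the other libraries lay closer together. Ndrg2 was 1.14-fold lower in VMHpvlm (difference -0.18, SE 0.04, adjusted p = 0.00129, 3252 ± 154 in VMHpvlm and 3693 ± 382 in VMHpvll), and without the F19 pair the difference was -0.10 and was not called. Acsbg1, an acyl-CoA synthetase for long fatty acids, was also lower (difference -0.25, adjusted p = 0.00291), as was the calcium-binding protein S100b (difference -0.21, adjusted p = 0.0393). Without F19, Acsbg1 was at -0.14 and S100b at -0.19, and neither was called. S100b was not called without F20 (-0.22) or without KH_161103 (-0.23) either.

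Aldoc and Aldh1l1, both enzymes, were the 2 members with this role that were not called. Aldoc, the brain aldolase of glycolysis, had 3516, 3638 and 3605 in VMHpvlm, against 3521, 3392 and 3383 in VMHpvll. The areas overlapped, with a difference of 0.06 (95% interval -0.01 to 0.14, adjusted p = 0.276, 3586 ± 63.1 in VMHpvlm and 3432 ± 76.9 in VMHpvll). Aldh1l1, the folate enzyme that labels astrocytes throughout the brain, had 278, 216 and 231 in VMHpvlm, against 273, 234 and 245 in VMHpvll. Its difference was -0.06 (95% interval -0.26 to 0.15, adjusted p = 0.77).

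**Figure D2:**
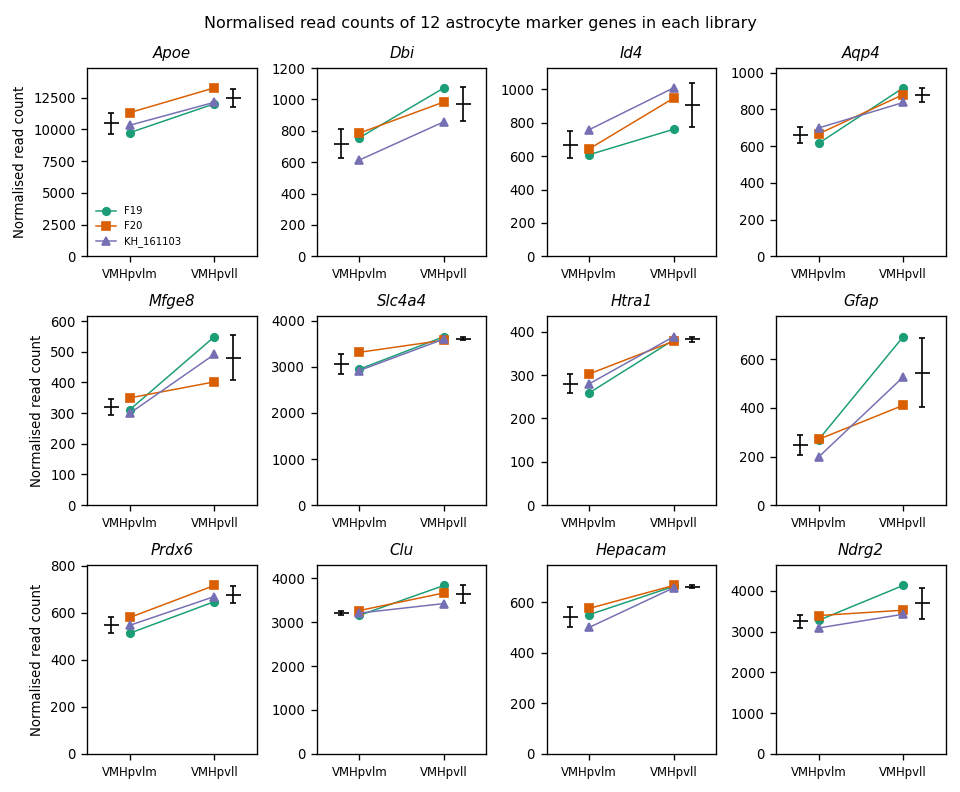
Normalised read counts (y axis, starting at 0) of the 12 called members with the smallest adjusted p, in the 3 libraries of VMHpvlm (left) and of VMHpvll (right); lines join libraries of equal name, and the black marks at the sides are the mean ± SD of each area. Every line runs upward to VMHpvll in all 12 genes, steeply for Gfap and nearly level for Ndrg2 in F20, which had 3392 in VMHpvlm and 3524 in VMHpvll.

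Channels, transporters and junction proteins made up 11 members, of which 6 were lower in VMHpvlm (median difference -0.20). Aqp4, the water channel of astrocyte endfeet, had 615, 666 and 698 in VMHpvlm, against 917, 880.2 and 837 in VMHpvll. The areas did not overlap, and the distance between them was widest in F19 and narrowest in KH_161103. Aqp4 was 1.33-fold lower in VMHpvlm (659.9 ± 42.1 in VMHpvlm and 878 ± 39.9 in VMHpvll, difference -0.41, SE 0.06, adjusted p = 2.25e-06).

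Slc4a4 encodes the sodium bicarbonate cotransporter with which astrocytes regulate pH. It had 2949.9, 3316 and 2921 in VMHpvlm, against 3656, 3579 and 3605 in VMHpvll. The VMHpvll libraries lay within a narrow band above all VMHpvlm libraries (3062 ± 220.2 in VMHpvlm and 3613 ± 39.4 in VMHpvll, difference -0.24, SE 0.04, adjusted p = 9.59e-06). Hepacam, an adhesion protein that anchors Mlc1 at astrocyte junctions, had 549.9, 575 and 499.5 in VMHpvlm, against 662, 666 and 656 in VMHpvll. It too was separate in all libraries (541 ± 38.3 in VMHpvlm and 661 ± 4.67 in VMHpvll, difference -0.29, SE 0.07, adjusted p = 0.00124), though without KH_161103 it was not called (-0.24).

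Mlc1 itself, a membrane protein of endfeet that is mutated in a leukodystrophy, had the same fitted difference as its partner to 2 decimals (-0.29, adjusted p = 0.00228), and its 479.5, 539 and 487 in VMHpvlm were all below the 667, 614 and 563 of VMHpvll. The zinc transporter Slc39a12 was lower in VMHpvlm (difference -0.28, adjusted p = 0.0219), and so was Ttyh1, a membrane protein of the tweety family (difference -0.13, adjusted p = 0.0156). The calls of these genes were lost in some fits with a pair left out. Without F19 the differences were -0.20 for Mlc1, -0.22 for Slc39a12 and -0.12 for Ttyh1, none of them called. Without KH_161103 they were -0.24 for Slc39a12 and -0.10 for Ttyh1, again not called.

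Both gap junction proteins among the members were not called. Gja1, the main astrocyte connexin, had 1028, 1237 and 1186 in VMHpvlm, against 1377, 1258 and 1126 in VMHpvll, and its difference within pairs was -0.42 in F19, -0.03 in F20 and 0.07 in KH_161103 (fitted -0.12, 95% interval -0.29 to 0.04, adjusted p = 0.308). The pairs therefore did not share a direction, and the F19 pair carried the estimate, which was 0.02 without it. Without F20 the estimate was -0.17 and was called. Gjb6, a further astrocyte connexin, had 244, 228 and 282 in VMHpvlm, against 282, 250.2 and 230.1 in VMHpvll, with a fitted difference of -0.02 (95% interval -0.23 to 0.19, adjusted p = 0.934). The KH_161103 pair was opposite in sign to the others, at 0.29 against -0.21 in F19 and -0.14 in F20.

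Of the transporters that were not called, Slc7a10, an exchanger of neutral amino acids, had no overlap between areas and a difference of -0.20 (adjusted p = 0.123). Atp1b2, the glial beta subunit of the sodium pump, was at -0.04 (adjusted p = 0.54), and Slc6a11, a GABA transporter of astrocytes, was at -0.03 (adjusted p = 0.631). A p above the threshold does not show that levels were equal.

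All 8 secreted proteins were called lower in VMHpvlm, with a median difference of -0.19. Apoe (chromosome 7, 19696109 to 19699188, minus strand, mm10) had 9741, 11319.5 and 10327 in VMHpvlm, against 12016, 13271 and 12134 in VMHpvll. No VMHpvlm library reached the lowest VMHpvll library, and F20 was the highest in both areas. The ratio was modest, 1.19-fold lower in VMHpvlm (10462 ± 798 in VMHpvlm and 12474 ± 693 in VMHpvll), and the difference of -0.25 (SE 0.03) had the smallest adjusted p of the members, 1.26e-09.

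Mfge8 (chromosome 7, 79133768 to 79149060, minus strand, mm10) had 312, 349.8 and 299.7 in VMHpvlm, against 549.6, 402 and 492 in VMHpvll. The areas were apart, least so in F20, and Mfge8 was 1.5-fold lower in VMHpvlm (320.3 ± 26.2 in VMHpvlm and 481 ± 74.3 in VMHpvll, difference -0.58, SE 0.09, adjusted p = 8.39e-06). Htra1, a secreted serine protease, had 259, 303 and 279.7 in VMHpvlm, against 381, 378 and 389 in VMHpvll. The VMHpvll libraries were nearly level with each other and above every VMHpvlm library (280.3 ± 22 in VMHpvlm and 383 ± 5.46 in VMHpvll, difference -0.45, SE 0.09, adjusted p = 0.000122).

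Clu, the extracellular chaperone clusterin, had 3154, 3263 and 3206 in VMHpvlm, against 3835, 3665 and 3422 in VMHpvll. Here VMHpvlm was the narrow group, and the distance to VMHpvll was largest in F19 (3208 ± 54.4 in VMHpvlm and 3641 ± 207 in VMHpvll, difference -0.18, SE 0.04, adjusted p = 0.000502). Sparcl1 (hevin), which promotes synapse formation, had 16875, 18633 and 17294 in VMHpvlm, against 18747, 19024 and 17834 in VMHpvll. The areas overlapped although VMHpvlm was lower within each pair (17601 ± 918 in VMHpvlm and 18535 ± 623 in VMHpvll, difference -0.08, SE 0.03, adjusted p = 0.0376), and this 1.05-fold ratio was the smallest of the called members. The other secreted proteins were Agt, the angiotensin precursor (difference -0.20, adjusted p = 0.00577), Cst3, the protease inhibitor cystatin C (-0.16, adjusted p = 0.00803), and Pla2g7, which degrades platelet-activating factor (-0.17, adjusted p = 0.0194). Without F19 the differences of Clu, Agt, Cst3, Pla2g7 and Sparcl1 were -0.13, -0.15, -0.10, -0.14 and -0.04, and without KH_161103 those of Agt, Pla2g7 and Sparcl1 were -0.19, -0.20 and -0.09; none of these was called.

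The receptors and surface proteins numbered 3, and 1 was lower in VMHpvlm. Ntsr2, a neurotensin receptor found on astrocytes, had 496, 439 and 443 in VMHpvlm, against 607, 496 and 586 in VMHpvll. The F19 library of VMHpvlm came close to the F20 library of VMHpvll but stayed below it. Ntsr2 was 1.23-fold lower in VMHpvlm (difference -0.29, adjusted p = 0.00283), and was not called without KH_161103 (-0.23). The orphan receptor Gpr37l1 (difference -0.15, adjusted p = 0.221) and F3, the tissue factor that starts coagulation (difference -0.08, adjusted p = 0.664), were not called.

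Among the 4 transcriptional regulators 3 were lower in VMHpvlm, and the median difference of the 4, -0.43, was the largest in size of the 5 role groups. That median lies between Id4 and Hes5, and Hes5 was weakly expressed and not called. Id4 (chromosome 13, 48261228 to 48266026, plus strand, mm10) had 608, 643 and 758 in VMHpvlm, against 761, 947 and 1009 in VMHpvll. The KH_161103 library of VMHpvlm lay just under the F19 library of VMHpvll, and within each pair VMHpvlm was clearly the lower. Id4 was 1.35-fold lower in VMHpvlm (669 ± 78.2 in VMHpvlm and 906 ± 129 in VMHpvll, difference -0.43, SE 0.06, adjusted p = 5.28e-07).

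Id3, a protein of the same family, was the member with the lowest level, at 9.48, 40.2 and 30.0 in VMHpvlm, against 45.1, 49.1 and 55.7 in VMHpvll. The areas did not overlap, but the F19 library of VMHpvlm stood far below the other 5, on 7 reads. The difference of -1.10 (SE 0.28, adjusted p = 0.00355) fell in size to -0.58 without the F19 pair and was then not called. Sox9, which directs astrocyte fate, had 301, 305 and 342 in VMHpvlm, against 380.3, 405 and 378 in VMHpvll, with no overlap (difference -0.30, adjusted p = 0.0101), and was not called without F19 (-0.28) or without F20 (-0.24). Hes5, a target of Notch, had 44.7, 68.0 and 48.1 in VMHpvlm, against 60.5, 80.4 and 74.9 in VMHpvll, and was not called (difference -0.43, 95% interval -0.82 to -0.04, adjusted p = 0.115).

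**Figure D3:**
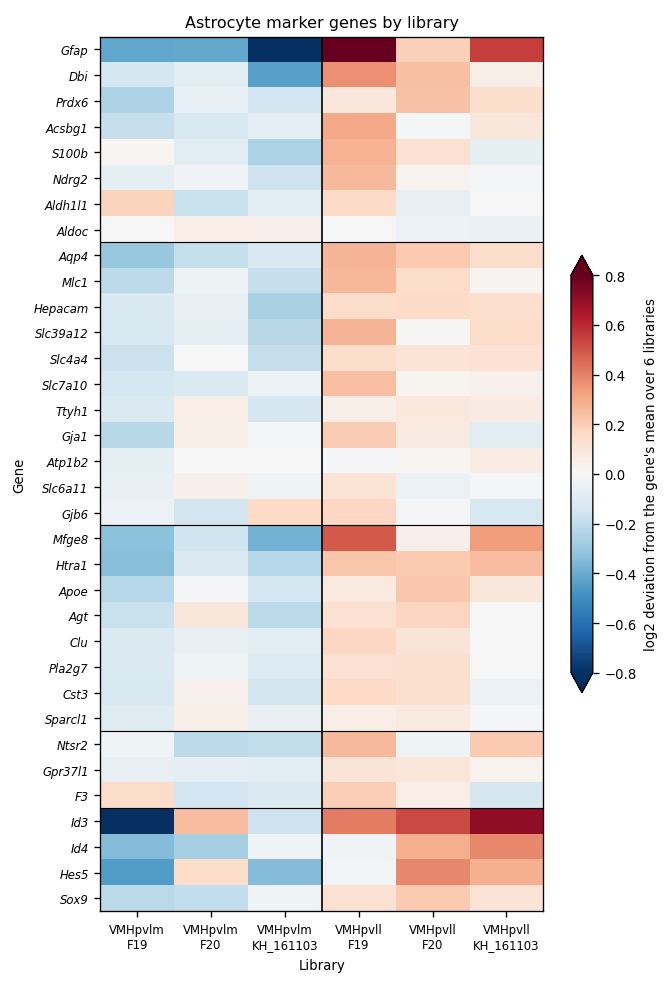
Log2 deviation of each astrocyte marker gene (rows, grouped by role as in the text) from its own mean over the 6 libraries (columns, VMHpvlm left of the black line and VMHpvll right), from blue (below the mean) to red (above it). Gfap and Id3 have the strongest colours, with Id3 lowest in the F19 library of VMHpvlm (9.48), and Aldoc, Atp1b2 and Slc6a11 are nearly white throughout.

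Per kilobase of exon, the members spanned a wide range of levels. Sparcl1 stood highest, at 5993 normalised counts per kilobase in VMHpvlm and 6311 in VMHpvll, followed by Apoe with 4894 in VMHpvlm and 5834 in VMHpvll. Cst3 had 1616 per kilobase in VMHpvlm and 1804 in VMHpvll, and Aldoc 1099 in VMHpvlm and 1052 in VMHpvll. In VMHpvlm, Gfap was among the lowest of the members, rank 31 of 34 by the level in that area. It had 58.3 per kilobase in VMHpvlm, close to Aldh1l1 (53.5), and 129 in VMHpvll, well above Aldh1l1 there (55.4). Id3 was the lowest, at 14.8 per kilobase in VMHpvlm and 27.9 in VMHpvll.

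Ratios between members within a library do not depend on how libraries were scaled. The ratio of Gfap to Aqp4 counts was 0.438, 0.406 and 0.284 in VMHpvlm, against 0.757, 0.467 and 0.630 in VMHpvll. Aqp4 relative to Aldoc was 0.175, 0.183 and 0.194 in VMHpvlm, against 0.260, 0.259 and 0.247 in VMHpvll. Both ratios were lower in every VMHpvlm library than in any VMHpvll library. The ratio of Gja1 to Gjb6 was 4.22, 5.43 and 4.21 in VMHpvlm, against 4.88, 5.03 and 4.90 in VMHpvll, and the areas overlapped. These ratios were chosen after the values were seen and have no test.

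Other genes of astrocytes, 43 in all and none of them among the 34, were described by the same model. Of these, 16 were lower and 3 higher in VMHpvlm, with a median of -0.18, so that this wider list moved in both directions. Id2, a further inhibitor of helix-loop-helix factors, averaged 347 ± 14.8 in VMHpvlm and 627 ± 91.3 in VMHpvll (difference -0.84, SE 0.08, adjusted p = 1.68e-11). Sox2, a factor of neural stem cells that astrocytes keep, was higher, at 386 ± 39.3 in VMHpvlm and 236 ± 32.7 in VMHpvll (difference 0.71, SE 0.10, adjusted p = 8.99e-08). The other genes with the smallest p were Bcan, the matrix proteoglycan brevican (difference -0.35, adjusted p = 3.99e-06), and Nfib, a factor of the NFI family that promotes glial differentiation (difference -0.42, adjusted p = 4.31e-05). Without the F19 pair 11 genes of this list were called, and without KH_161103 also 11. Of all tested genes, 2136 were called without F19 and 1776 without KH_161103.

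Genes of reactive astrocytes, which injury induces, were low or absent in part: 8 of 15 passed the filter and were tested, and Lcn2 and Cxcl10 were at 0 in all libraries. Of the 8, only C4b, a complement component, was called, at 73.9 ± 8.01 in VMHpvlm and 120.4 ± 37.6 in VMHpvll (difference -0.66, adjusted p = 0.00417), and it was not called without F19 (-0.33) or with DESeq2. Tanycytes, glia that line the third ventricle, and ependymal cells share genes with astrocytes, and 8 of 12 of their markers were tested. Nes, the intermediate filament nestin, was lower at 94.9 ± 16.3 in VMHpvlm and 212 ± 23.9 in VMHpvll (difference -1.16, adjusted p = 1.73e-09). Col23a1, a transmembrane collagen, was lower (-0.54, adjusted p = 0.00987), and was called neither without F19 (-0.53) nor without KH_161103 (-0.49). Scn7a, a sodium channel, was higher at 134 ± 9.69 in VMHpvlm and 63.0 ± 8.80 in VMHpvll (difference 1.08, adjusted p = 1.05e-06). The ependymal gene Tmem212 was at 0 in all libraries. Rax, Ccdc153 and Gpr50 of this list were also below the filter, with means over all libraries of 1.31, 1.59 and 8.76. Which cells the Nes reads came from was not tested.

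Markers of other cells moved beside the astrocyte genes. Of 15 oligodendrocyte markers 12 were lower in VMHpvlm and 0 higher (median -0.42), with a summed level of 12707 to 14484 in VMHpvlm and 17020 to 18349 in VMHpvll. DESeq2 called 7 of them. Of 10 markers of their precursors 6 were lower and 0 higher (0 called with DESeq2, median -0.26, summed 2256 to 2669 in VMHpvlm and 2810 to 3043 in VMHpvll). Of 16 endothelial and mural markers 8 were lower and 0 higher (2 called with DESeq2, median -0.43, summed 2608 to 3002 in VMHpvlm and 3622 to 4217 in VMHpvll), among them the growth factor receptor Kdr at 151 ± 3.84 in VMHpvlm and 297 ± 50.9 in VMHpvll (difference -0.96, adjusted p = 2.88e-09). Of 16 neuron markers 6 were higher in VMHpvlm and 1, the neurofilament Nefh, was lower (3 called with DESeq2, median 0.07, summed 94945 to 101486 in VMHpvlm and 89744 to 96248 in VMHpvll). Snap25, a protein of synaptic vesicle fusion, averaged 10258 ± 850.4 in VMHpvlm and 7275 ± 755 in VMHpvll (difference 0.50, adjusted p = 3.89e-17).

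Microglia markers gave 0 calls among 15 with limma (2 at an unadjusted p below 0.05), and 0 with edgeR and with DESeq2. Their median was -0.06, and their summed level was 1595 to 1674 in VMHpvlm and 1644 to 1861 in VMHpvll. Erythrocyte markers, 3 of 5 tested, had 0 calls with limma, edgeR and DESeq2, 0 at an unadjusted p below 0.05, and summed levels of 25.0 to 113 in VMHpvlm and 34.3 to 101 in VMHpvll. The part that other cell types and the share of Gm42418 have in the differences of astrocyte genes was not tested; after scaling to equal totals without Gm42418, 24 members were called.

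**Figure D4:**
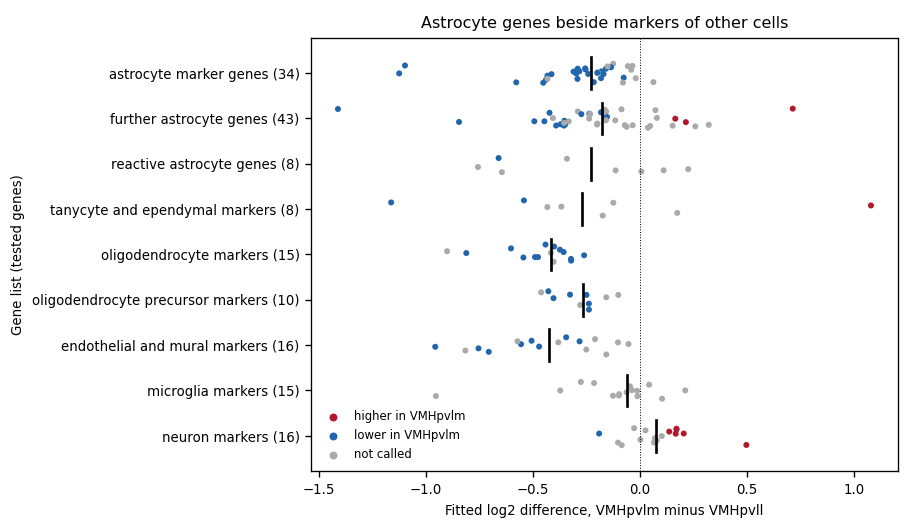
Fitted log2 difference (VMHpvlm minus VMHpvll, x axis) of each tested gene in 9 lists (y axis, number of tested genes in brackets), coloured red where called higher in VMHpvlm, blue where called lower and grey where not called, with the list's median as a black bar. The bar of the 34 astrocyte markers is at -0.23, between those of oligodendrocytes (-0.42) and microglia (-0.06), and the neuron bar is at 0.07.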

How the data were processed

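RNA sequencing of laser-captured tissue gave 6 libraries, 3 from VMHpvlm and 3 from VMHpvll. HISAT2, featureCounts and the genome build mm10 are named without versions, per the submitters' processing notes. Which tool scaled the counts, which annotation was used and whether strand was used is not given in the sources used here. Reads of overlapping antisense genes can therefore not be told apart from those of a gene: 6 of the 34 members have exons that overlap another gene in GENCODE M21, 3 of them called (Id4, Pla2g7 and Ttyh1). The deposited values are a normalised signal, in which the authors had divided gene counts by 1 factor per library: dividing by the value of 1 read turned 100% of the values above 0 into whole reads (tolerance 0.05 reads), and sums of these reads are the depths. The table held 27 names turned into dates and 2 duplicated names.

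In R 4.3.3, limma 3.58.1 (eBayes with trend and robust, two-sided, Benjamini-Hochberg adjustment) was fitted to log2(value + 1) of 14522 genes, those whose mean over the libraries was 10 or more, with area and pair name as terms. This leaves 2 residual degrees of freedom, to which the variance prior added a median of 39.9, and this prior, taken from genes of like level, sets most of each p-value. The log scale with its pseudocount understates the differences of weakly expressed genes; a fold is the ratio of the area means. Intervals are 95%, not adjusted. Deviations from the area means correlated at 0.26, 0.24 and 0.36 between libraries of equal name and at -0.25 to 0.01 otherwise, so the names were taken to pair the libraries, a pairing also used by the rule for the members. Libraries of 1 area differed by more than sampling noise (chi-square per degree of freedom 5.54 to 9.83).

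The 34 members and all lists were chosen with earlier results of these data known. Full values are given for the 12 called members with the smallest adjusted p and the same sign in 3 pairs and for the 4 members with the highest mean, and up to 4 called genes with the smallest p could be named per other list. Values of further members in single libraries were added after they were seen. No set tests were run. Levels per kilobase use exon lengths from GENCODE M21. Promoter windows came from a RefSeq table. Alternatives were no pair term, a random pair effect, pseudocounts of 0.5 and 5, no filter or a minimum of 50, 4 other scalings, eBayes without trend or robust, leaving out pairs, and count tests on recovered reads (edgeR 4.0.16; DESeq2 1.42.0). The limma step was tested on simulated data.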

Additional observations from a re-analysis of the deposited data

How the results depend on the processing

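Each alternative kept the direction of all 24 called members. Without the replicate block that pairs libraries of equal name, 15 members and 11 of the further astrocyte genes were called, against 24 and 19 with it. With DESeq2 the counts were 10 and 7; of the other lists, it called 7 oligodendrocyte, 0 precursor, 2 endothelial and mural, 3 neuron, 2 tanycyte and ependymal and 0 reactive astrocyte genes. With the variance prior but without trend or robust they were 0 and 0 (16 members had an unadjusted p below 0.05). Leaving out pairs, or single libraries without the block (added after seeing the data), gave 8 to 23 members and 7 to 21 further genes. Over all tested genes these fits called 1365 to 2868. The cause of these changes was not tested. With the block, leaving out 1 library equals leaving out its pair, so that was not run separately. Gfap, Prdx6, Dbi, Aqp4, Slc4a4, Apoe, Htra1, Mfge8 and Id4, 9 members, kept their call in 15 fits (pair term, scaling, pseudocount, filter, edgeR, DESeq2 and pairs left out) and lost it in the fit without trend or robust. In the 6 fits without the block and without 1 library, 6 of these 9 kept it as well, whereas Gfap was not called in 3 (adjusted p with limma 0.0738 to 0.0837), Id4 in 3 (0.0696 to 0.0890) and Prdx6 in 2 (0.0523 and 0.0680). The counts of members were 23 with edgeR, 20 with a random pair effect, 20 after scaling to the same total, 23 without a filter and 24 after TMM. Called members that DESeq2 did not call were S100b, Acsbg1, Ndrg2, Mlc1, Hepacam, Slc39a12, Ttyh1, Cst3, Agt, Sparcl1, Pla2g7, Ntsr2, Sox9 and Id3. Over all tested genes 2905 were called, against 3031 with edgeR on the recovered reads, 1800 without the block, 1230 with DESeq2 and 422 without trend or robust. Depth limits Id3, which rested on 7 to 61 reads per library. With 3 libraries per area, all calls lean on the spread estimated over many genes.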

Other observations

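The Id genes encode inhibitors of helix-loop-helix factors, and all 4 measured ones were lower in VMHpvlm, a group put together after the values were seen. Id1 had 4.06, 16.7 and 7.27 in VMHpvlm, against 22.0, 25.3 and 21.9 in VMHpvll (difference -1.41, SE 0.40, adjusted p = 0.00796 with limma). These are low levels, and Id1 was called neither without the F19 pair (-1.02) nor without KH_161103 (-1.38). Id2 had 330.5, 359.5 and 349.7 in VMHpvlm, against 604, 549.5 and 728 in VMHpvll, with no overlap between areas.

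Further genes were also picked after their values were seen. Slc1a2, the main glutamate transporter of the forebrain, was lower in VMHpvlm, with 19437 ± 655 in VMHpvlm and 24862 ± 2131 in VMHpvll (difference -0.35, SE 0.05, adjusted p = 0.0073 with limma, lower in 3 of 3 pairs). Slc1a3, the transporter that radial glia also carry, was at 4229 ± 404 in VMHpvlm and 4403 ± 137 in VMHpvll, a difference of -0.06 that was not called (adjusted p = 0.329). Glul, the enzyme that turns glutamate into glutamine, was lower within each of the 3 pairs but not called (-0.09, 95% interval -0.16 to -0.01, adjusted p = 0.0951). Whether these differences differ from each other was not tested. Sox2, Itih3 and Rorb were the 3 further astrocyte genes that were higher in VMHpvlm. Itih3, an inhibitor of the inter-alpha-trypsin family, had a difference of 0.17 (adjusted p = 0.00261) and the nuclear receptor Rorb of 0.21 (adjusted p = 0.0241, with overlapping areas). Neither call held with every pair left out: Itih3 was at 0.09 and Rorb at 0.16 without F20, and Rorb at 0.15 without KH_161103.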
